A study of Homo sapiens and Mus musculus with 17 samples.

Results

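SLC22A31 and ENSG00000262692 are 2 of the 62714 genes listed for HEK293T cells, a human embryonic kidney line, and were selected on their FPKM, which is higher in both knockouts of an ER-associated degradation complex. FPKM is a gene's sequenced fragments divided by its transcript length and by how many fragments the whole library gave. The series holds 17 libraries of polyA RNA, and the 9 HEK293T libraries are used here, with 3 in each group. WT cells had received an empty plasmid without a guide, and the cells labelled HRD1 KO and SEL1L KO had been edited with CRISPR/Cas9 at SYVN1, which encodes HRD1, or at SEL1L. Whether each knockout line grew from 1 clone was not given in the sources used here, so p-values measure the spread between these libraries, which may be technical. The other 8 libraries came from brown adipose tissue of mice aged 12 weeks (WT, Hrd1 KO and Sel1L KO) and were not analysed here.

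SEL1L and HRD1 form a complex of the endoplasmic reticulum membrane that passes misfolded proteins out to the proteasome. When misfolded proteins build up in the ER, the sensors IRE1, PERK and ATF6 start the unfolded protein response, which raises transcription of chaperones and degradation factors. HSPA5 (BiP), the main ER chaperone of the HSP70 family, is its most used readout. SLC22A31 belongs by sequence to the SLC22 family, whose better known members carry organic cations, anions and carnitine across the plasma membrane, while ENSG00000262692 is annotated as a long noncoding RNA with no symbol.

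The edited genes were read first. SEL1L stood at 4.39, 8.74 and 12.85 FPKM in WT, at 3.79, 19.27 and 24.06 in HRD1 KO and at 1.82, 3.36 and 2.59 in SEL1L KO libraries, so every SEL1L KO library lay below every WT library. SYVN1 stood at 16.95, 16.70 and 16.92 FPKM in WT and at 22.47, 18.48 and 19.83 in the libraries labelled HRD1 KO, none of which was below WT, and an edit need not lower the mRNA. The paper checked its knockout HEK293T cells by immunoblot. In SEL1L KO libraries SYVN1 was at 28.93, 28.36 and 25.92 FPKM, above every WT library. That log2 difference of 0.71 (SE 0.17) from WT did not pass. Neither SEL1L nor SYVN1 passed in SEL1L KO (adjusted p = 1.0 each, limma). Their intervals, not adjusted for the number of genes, left out 0 (-3.06 to -0.17 for SEL1L and 0.33 to 1.09 for SYVN1). With the replicate number as a block the intervals were -2.43 to -0.80 and 0.40 to 1.03. Neither gene passed with the block (adjusted p = 0.47 and 0.27, limma). In HRD1 KO the SYVN1 difference did not pass, and its interval held 0 with and without the block. The 5 HEK293T markers summed to 319.3 to 679.1 FPKM over the 9 libraries. Most of that was VIM (225.47 to 569.22), while PAX2 was at 1.93 to 3.05. Of 8 markers of other cell types, 3 (PTPRC, DCN and CDH5) were at 0 in all 9. COL1A1 made most of the remaining sum of 4.25 to 15.94 FPKM. NEFM, a neurofilament gene, was at 0.34 and 0.11 FPKM in SEL1L KO replicates 1 and 2 against 50.89 in replicate 3, and SLC22A31 was similar in those libraries (21.90, 27.33 and 20.77 FPKM). Depth, recovered from the step that 1 fragment makes in the FPKM, was 8770000 to 15800000 fragments a library.

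SLC22A31 (ENSG00000259803) lies at chr16:89195761-89201651 (GRCh38) on the minus strand as a protein-coding gene with 7 annotated transcripts. The canonical transcript has 9 exons and 1615 bases, and no other stretch of the genome matched it over 50 or more bases at 80% identity. The 250 bases before its RefSeq start, chr16:89201679-89201928 on the minus strand, are shown because they are the sequence in which ER stress elements would be sought. Capitals mark the letters CCGCCC (GC box), a motif that was added after the window had been read.
SLC22A31 upstream: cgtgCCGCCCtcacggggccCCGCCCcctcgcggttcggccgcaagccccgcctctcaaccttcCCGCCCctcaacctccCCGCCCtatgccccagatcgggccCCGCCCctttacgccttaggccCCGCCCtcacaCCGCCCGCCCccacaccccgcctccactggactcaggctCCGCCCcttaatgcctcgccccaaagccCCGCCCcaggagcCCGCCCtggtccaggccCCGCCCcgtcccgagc
The window was 76.4% G and C, above 91.9% of 35116 RefSeq windows of that length (median 58.0%), and held the GC box 12 times, all on the gene's strand. At least 1 GC box was in 42.6% of windows. The share of windows with 12 or more, among all or among those of like G and C content, was not counted. The SLC22A31 window held no ER stress response element (ERSE, CCAAT and CCACG 9 bases apart), no type II ERSE, no XBP1 site UPRE (TGACGTGG), no C/EBP-ATF core (TGATGNAA) and no CCACG core on either strand. These were in 0.074%, 0.0513%, 0.612%, 3.14% and 33.5% of all windows, and each ERSE also counts as a CCACG core. None of the 5 was in the 250 bases before the start of the canonical GENCODE transcript either (chr16:89200538-89200787). The 250 bases before the GENCODE start of ENSG00000262692 held 1 CCACG core, 198 bases before that start on the minus strand. They held no ERSE, type II ERSE, UPRE or C/EBP-ATF core. The search took only exact matches to the fixed letters of each motif, so a variant element was not counted in any window. The same search of HSPA5 found 1 ERSE, 66 bases before its RefSeq start at chr9:125241391-125241409 on the minus strand.
HSPA5 ERSE: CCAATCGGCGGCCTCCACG

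ENSG00000262692 lies at chr17:3721628-3722488 (GRCh38) on the plus strand, within ITGAE, which is read from the minus strand and encodes the integrin alpha E chain. Its only transcript has 2 exons of 191 and 100 bases, and neither overlaps an exon of the 9 ITGAE transcripts. The intron of 570 bases opens with GT and ends with AG. Of the 191 bases of exon 1, 73 matched elsewhere in the genome over at least 50 bases at 90% identity or more, as did all 100 bases of exon 2, which comes to 173 of 291 bases, or 59.5%. A fragment that lay in these bases alone could be assigned to this gene only by estimate, whereas 118 bases of exon 1 had no such match. Whether the counting used strand was not given in the sources used here, and without strand an unspliced ITGAE fragment across these exons could not be told apart from this RNA.

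SLC22A31 was at 6.23, 5.25 and 3.51 FPKM in the WT libraries. It was at 30.93, 23.23 and 26.47 FPKM in HRD1 KO and at 21.90, 27.33 and 20.77 in SEL1L KO. All 6 knockout libraries lay above all 3 WT libraries without overlap, and the lowest knockout value was 3.33 times the highest WT value. The mean rose from 5.00 ± 1.38 in WT (SD, n = 3) to 26.9 ± 3.87 in HRD1 KO and 23.3 ± 3.51 in SEL1L KO, which is 5.38 and 4.67 times the WT mean. On the log2(FPKM + 0.1) scale the differences from WT were 2.43 (SE 0.25) and 2.23 (SE 0.25), given as a description with no test since the gene was chosen for them. Of the 15796 genes tested, 9 (0.057%) were called higher in HRD1 KO and 5 (0.0317%) in SEL1L KO, and 0.589% had every knockout library above every WT library. The members are among both sets by choice. The others called higher in HRD1 KO were CALR, DERL3, HSP90B1, MANF, PDIA4, PDIA6 and SDF2L1, and those in SEL1L KO were DERL3, MANF and PDIA4, all encoding proteins of the ER and named here after their values were seen.

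**Figure D1:**
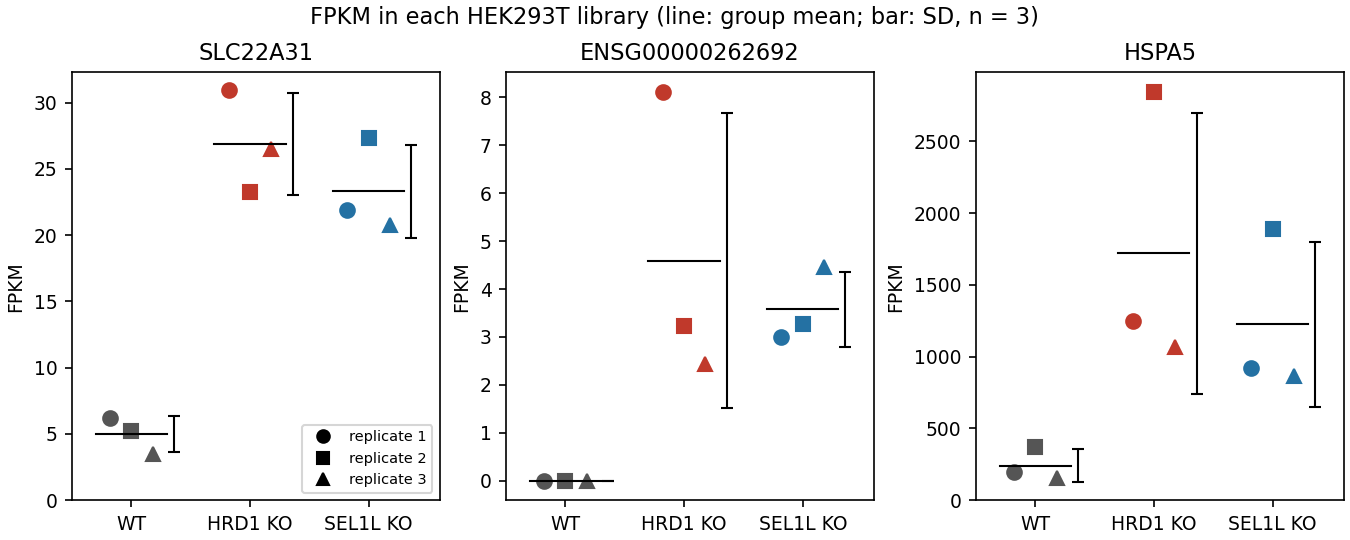
FPKM of SLC22A31, ENSG00000262692 and HSPA5 in the 3 WT, 3 HRD1 KO and 3 SEL1L KO libraries, with the marker shape giving the replicate number, the line the group mean and the bar the SD (n = 3). SLC22A31 sits between 3.51 and 6.23 FPKM in WT and between 20.77 and 30.93 in the knockouts, ENSG00000262692 is at 0 in WT, and HSPA5 is highest in replicate 2 of each group.

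ENSG00000262692 was listed at 0 FPKM in all 3 WT libraries. It was at 8.12, 3.23 and 2.43 FPKM in HRD1 KO and at 3.0, 3.27 and 4.46 in SEL1L KO libraries. All 6 knockout libraries lay above WT, and HRD1 KO replicate 1 was the highest. These values rest on very few fragments. Because its transcript is short, 1 fragment was worth 1.51 to 3.24 FPKM, so that the HRD1 KO libraries held 4, 1 and 1 fragments and the SEL1L KO libraries 2, 2 and 2, each within 0.021 of a whole number. The total was 12 fragments in 6 libraries against 0 in WT. Per 10000000 fragments this was 1.92 in HRD1 KO and 1.47 in SEL1L KO. A total of 3 fragments over the 3 WT libraries, the limit taken here for a count of 0, would be 0.860. The exact Poisson interval (95%) of the 6 fragments of each knockout was 2.20 to 13.1, and that of the WT count was 0 to 3.69. Intervals and limits cover counting error only. The intervals are of counts not scaled to depth, and they overlapped between WT and each knockout. Such overlap is not a test of the difference. With 0 fragments in WT, no fold is given. Without HRD1 KO replicate 1, 2 fragments remained in that group. The gene passed the filter on low values only through the knockout libraries. Of 35347 listed genes at 0 in all WT libraries, 7 (0.0198%) were above 0 in all 6 knockout libraries. Only 31365 of the 62714 listed genes were above 0 in any library. The share is therefore low in part because most of the 35347 were at 0 in every library.

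**Figure D2:**
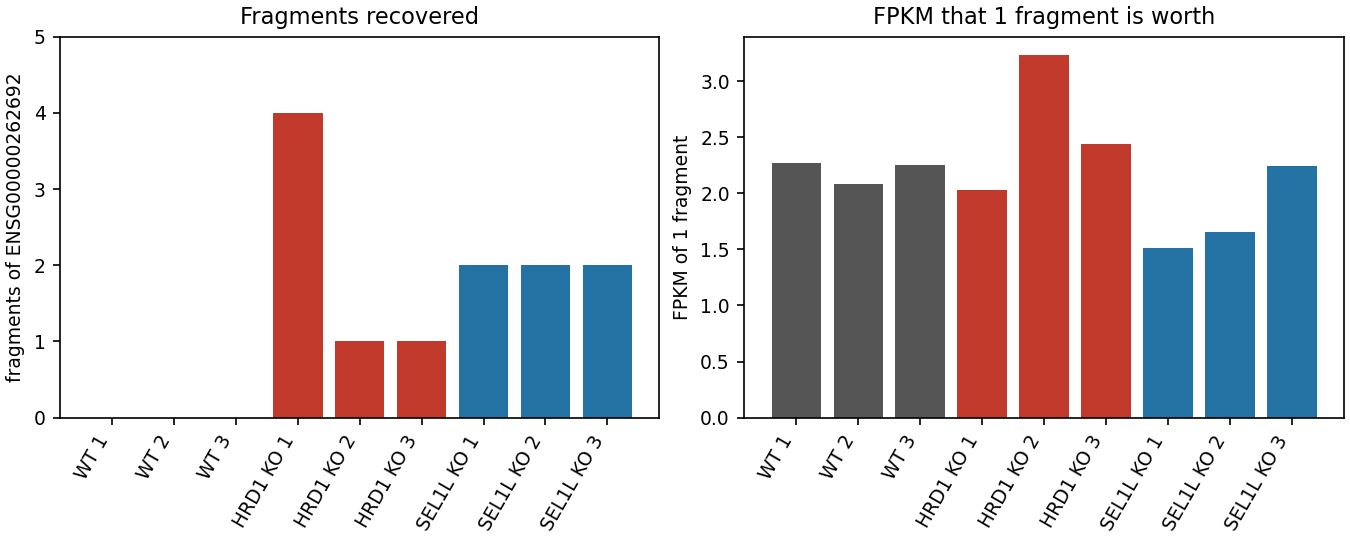
Left, whole fragments of ENSG00000262692 recovered in each HEK293T library, and right, the FPKM that 1 fragment of it is worth there. The bars at left are 0 in WT, 4, 1 and 1 in HRD1 KO and 2 each in SEL1L KO, and those at right run from 1.51 to 3.24.

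The knockouts were next compared with each other, a contrast that the choice of genes did not use. SLC22A31 differed by 0.20 on the log2 scale (HRD1 KO minus SEL1L KO, SE 0.25, 95% interval -0.36 to 0.76, adjusted p = 1.0, limma), and the ranges of the knockouts overlapped, as they did for all but 5.18% of the genes tested. In folds the interval ran from 0.78 to 1.70. ENSG00000262692 differed by 0.18 (SE 0.55, interval -1.04 to 1.40, adjusted p = 1.0), which is coarser because most of its libraries held 1 or 2 fragments. Without HRD1 KO replicate 1, which held 4, this became -0.32. HSPA5 differed by 0.44 (SE 0.45, interval -0.56 to 1.44, adjusted p = 1.0). Within replicate numbers 1, 2 and 3 the difference of HSPA5 was 0.44, 0.59 and 0.30, all of one sign, and that of SLC22A31 was 0.50, -0.23 and 0.35. With the replicate number as a block the interval of HSPA5 was 0.21 to 0.68, which leaves out 0, but the gene did not pass over all genes tested (adjusted p = 0.47, limma), and that of SLC22A31 was -0.26 to 0.67 (adjusted p = 0.89). No gene passed in this contrast (0 of 15796 in limma, 0%), 369 had an unadjusted p under 0.05, and 2 (0.0127%) passed with the replicate number as a block.

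HSPA5 was far more abundant than SLC22A31. It was at 193.94, 369.00 and 157.78 FPKM in WT libraries, at 1246.66, 2845.70 and 1067.59 in HRD1 KO and at 919.93, 1886.23 and 868.32 in SEL1L KO. All knockout libraries lay above all WT libraries, and replicate 2 was the highest in each group, at 2.10, 2.46 and 2.11 times the mean of replicates 1 and 3. The same ratio for SLC22A31 was 1.08, 0.81 and 1.28, on both sides of 1. Replicate 2 was highest in all 3 groups for 10.8% of the genes tested, so the pattern of HSPA5 was shared by many. In the F test of the replicate number, HSPA5 passed (adjusted p = 0.0011, limma) and SLC22A31 did not (adjusted p = 0.33), against 27.2% of all genes tested. ENSG00000262692, with 0 to 4 fragments a library, held too few for this test to be read. That HSPA5 passed and SLC22A31 did not is not a test of their difference, which was not made.

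The change of HSPA5 against WT was 2.80 (SE 0.45) in HRD1 KO and 2.35 (SE 0.45) in SEL1L KO on the log2 scale, and neither passed without a block (adjusted p = 0.13 and 0.39, limma). With the replicate number as a block the SE fell to 0.10 and both passed (adjusted p = 1.0e-05 and 4.8e-05). Taken within each replicate number, HSPA5 was 6.43, 7.71 and 6.77 times its WT partner in HRD1 KO and 4.74, 5.11 and 5.5 times in SEL1L KO. For SLC22A31 the same ratios were 4.96, 4.42 and 7.54 in HRD1 KO and 3.52, 5.21 and 5.92 in SEL1L KO. The ratios of SLC22A31 thus spread more widely within replicate numbers than those of HSPA5, whereas its FPKM spread less within each group (14.4% to 27.6% of the mean against 46.8% to 56.9%). By its shortest and longest transcripts, SLC22A31 had about 26 to 123, 22 to 99 and 14 to 66 fragments in WT replicates 1, 2 and 3. Its largest ratios, 7.54 and 5.92, were over WT replicate 3. The part of counting error in this spread was not tested. HSPA5 was 31.1, 70.3 and 45 times SLC22A31 in the WT libraries, 40.3, 122.5 and 40.3 times in HRD1 KO and 42.0, 69.0 and 41.8 times in SEL1L KO, so the ratio was highest in replicate 2 throughout.

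Likeness to each member was measured over the 9 libraries as the root mean square difference in log2(FPKM + 0.1) after subtracting each gene's WT mean. The measure reads the same values that chose the members, so it is a description. Nearest to SLC22A31 were PDIA4 (0.314), a protein disulfide isomerase of the ER, DERL3 (0.431), a derlin of the degradation machinery, HERPUD1 (0.533), a membrane protein of the same machinery, SDF2L1 (0.539), an ER cochaperone, and SEPSECS-AS1 (0.582), an antisense RNA. HSPA5 came at rank 6 (0.595) of 15795 genes, whose median was 2.01. PDIA4 was at 101.84, 119.04 and 107.65 FPKM in WT, at 658.60, 734.01 and 589.43 in HRD1 KO and at 380.54, 484.01 and 470.67 in SEL1L KO, with log2 differences from WT of 2.59 and 2.02. DERL3, at 7.47, 6.38 and 7.84 FPKM in WT, the level nearest to that of SLC22A31 among the 3 genes most like it, was at 35.51, 24.76 and 21.05 in HRD1 KO and 32.81, 35.81 and 29.22 in SEL1L KO, with log2 differences of 1.86 and 2.16. HERPUD1 was highest in replicate 2 of each group, as HSPA5 was.

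**Figure D3:**
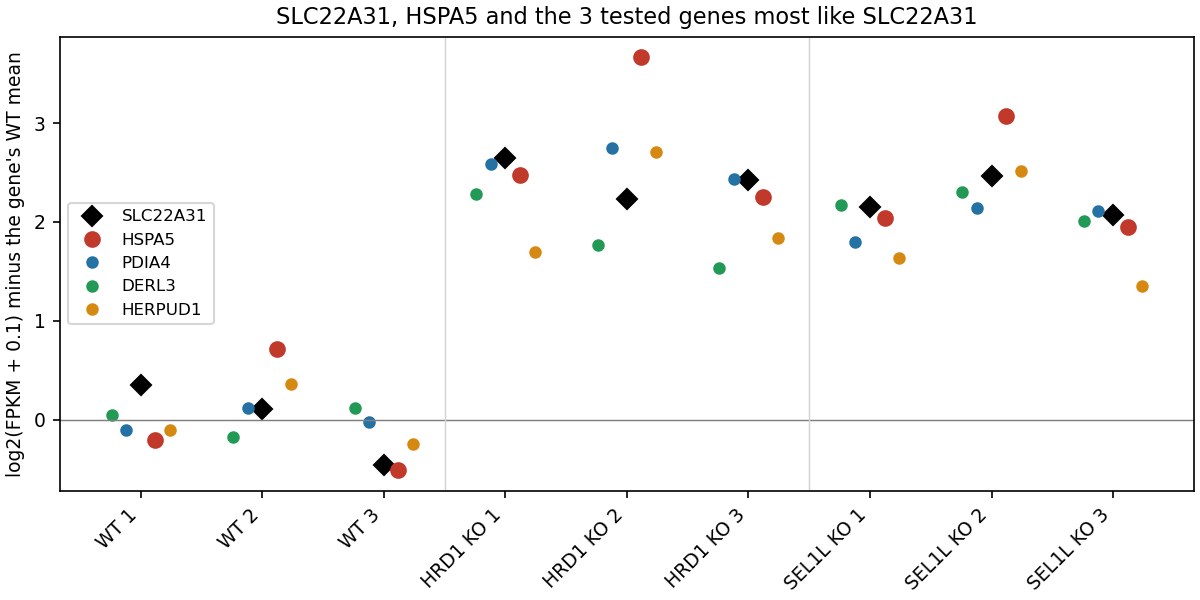
Log2(FPKM + 0.1) minus each gene's WT mean in the 9 HEK293T libraries for SLC22A31, HSPA5 and the 3 genes most like SLC22A31, offset sideways within a library for legibility. HSPA5 and HERPUD1 are highest in replicate 2 of each group, and SLC22A31 is not highest there in WT and HRD1 KO.

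ENSG00000262692 had no close match. Nearest were ENSG00000229273 (1.28), LINC02761 (1.31), ENSG00000284660 (2.09), HSPA5 (2.33) and ENSG00000267598 (2.36). The WT mean of ENSG00000262692 is the pseudocount alone, and its knockout values rest on very few fragments. These distances and their order therefore depend on the pseudocount. The 4 noncoding or unnamed genes were at 0 FPKM in the WT libraries but for 0.08 in 1 library of ENSG00000229273, and their knockout values ran from 0 to 18.44 FPKM.

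Of 23 genes of the SLC22 family, 9 were listed at 0 FPKM in every HEK293T library, 17 stayed under 1 FPKM in all of them, and 6 passed the filter. SLC22A31 had the fourth highest mean FPKM of the family in WT and the highest in both knockouts. Of the 5 other tested genes, none passed against WT in either knockout (limma, also with the block), and their median log2 change was -0.17 in HRD1 KO and -0.08 in SEL1L KO, beside -0.05 and -0.06 over all genes tested. SLC22A17, a receptor for lipocalin and the most abundant of them in WT, was at 14.97, 13.24 and 5.65 FPKM in WT, 17.44, 18.02 and 8.41 in HRD1 KO and 8.65, 15.81 and 5.92 in SEL1L KO, with replicate 3 the lowest in each group. It was the 1 family member that passed in the test of the replicate number (adjusted p = 0.010). SLC22A18 differed from WT by 0.45 and -0.56 (SE 0.63), SLC22A15 by -0.27 and 0.52 (SE 0.52) and SLC22A23 by -0.29 and -0.08 (SE 0.32), none of which passed.

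**Figure D4:**
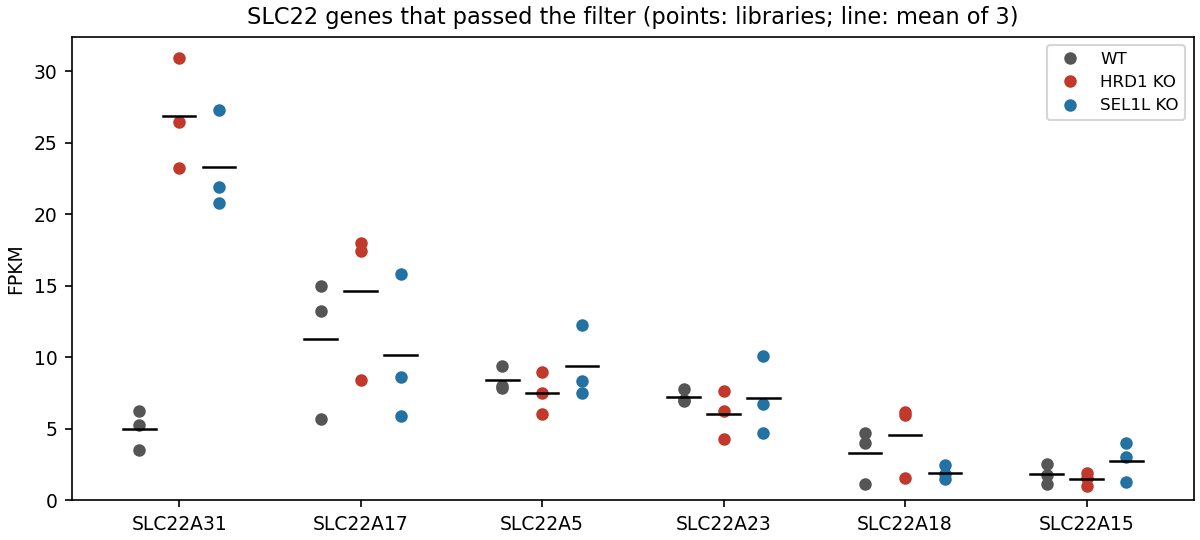
FPKM of the 6 SLC22 genes that passed the filter, with a point for each library and a line for the mean of 3. SLC22A31 lies between 20.77 and 30.93 in the knockouts and 3.51 and 6.23 in WT, and the groups of the other 5 overlap.

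The response genes were counted by branch, on lists chosen with earlier results of these data known. Of 18 targets of ATF6 and XBP1, which all were tested, 7 rose in HRD1 KO and 3 in SEL1L KO, none fell, and all 18 had values above 0 in both differences, with medians of 1.41 and 1.13 (log2) beside -0.05 and -0.06 over all genes tested. With the block, 12 and 10 passed, of 25 (0.158%) and 12 (0.076%) genes in all. SSR1, of the translocon-associated complex, and EDEM1, a mannosidase-like degradation factor, had the smallest differences (0.14 and 0.24, and 0.25 and 0.25). Of 14 targets of PERK and ATF4, none passed in either knockout, with or without the block, and the medians were 0.11 and 0.34. DDIT3 (CHOP), a proapoptotic factor, differed by 0.82 and 1.14 (SE 0.72), and ASNS, asparagine synthetase, by 0.23 and 0.43 (SE 0.47). PPP1R15A, a phosphatase subunit, differed by -0.05 and -0.28 (SE 0.41), and NUPR1, a stress regulator, by -1.07 and -0.50 (SE 1.86). With the block these SEs fell to 0.15, 0.18, 0.14 and 0.73. The blocked intervals of DDIT3, 0.47 to 1.17 and 0.79 to 1.49, then left out 0. Its differences still did not pass (adjusted p = 0.17 and 0.052, limma). DDIT3 was above its WT partner in every replicate number of both knockouts. Of ASNS, PPP1R15A and NUPR1, only ASNS in SEL1L KO had a blocked interval that left out 0 (0.01 to 0.84). The replicate number passed for 10 of these 14, 6 of the 18 and 1 of the 5, beside 27.2% of all genes tested.

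Around SLC22A31, 20 genes of the table lie within 250 kb, 6 of them tested, and none passed against WT in either knockout, also with the block (limma). CDH15, a cadherin whose gene ends 268 bases from that of SLC22A31 on the opposite strand, did not pass the filter on low values. Its mean in WT was 0.087 FPKM. ZNF778-DT, 13.5 kb away, was at 3.34, 4.50 and 3.06 FPKM in WT, 2.93, 2.7 and 2.05 in HRD1 KO and 2.44, 2.47 and 2.38 in SEL1L KO, every knockout library being below WT, as for 0.608% of the genes tested. It did not pass (log2 -0.49 and -0.54, SE 0.30). ACSF3, an acyl-CoA synthetase of mitochondria, 31.6 kb away on the other side, differed by 0.34 and 0.20 (SE 0.23). ZNF778, a zinc finger gene 16.1 kb away, was the 1 tested neighbour with all 6 knockout libraries above WT, by 0.89 and 0.58 (SE 0.37), and it did not pass (adjusted p = 1.0).

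Around ENSG00000262692, 23 genes lie within 250 kb, 10 of them tested, and none passed. ITGAE, the gene that spans it, was at 39.76, 46.77 and 71.47 FPKM in WT, 54.26, 51.95 and 46.63 in HRD1 KO and 53.94, 48.04 and 53.50 in SEL1L KO. The groups overlapped, and the differences were -0.01 and 0.02 (SE 0.22). HASPIN, a histone H3 kinase 1.4 kb away, differed by -0.12 and 0.05 (SE 0.23), and EMC6, a subunit of the ER membrane protein complex 52.0 kb away, by -0.02 and 0.02 (SE 0.17). NCBP3, a cap-binding protein gene 79.7 kb away and named after its values were seen, was at 27.41, 23.38 and 26.28 FPKM in WT, 11.90, 12.20 and 21.56 in HRD1 KO and 16.47, 22.75 and 17.29 in SEL1L KO. All its knockout libraries lay below WT, and the differences of -0.80 and -0.46 (SE 0.26) did not pass (adjusted p = 1.0 each, limma). The medians over the tested neighbours were 0.17 and 0.13 for SLC22A31 and -0.04 and -0.05 for ENSG00000262692.

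**Figure D5:**
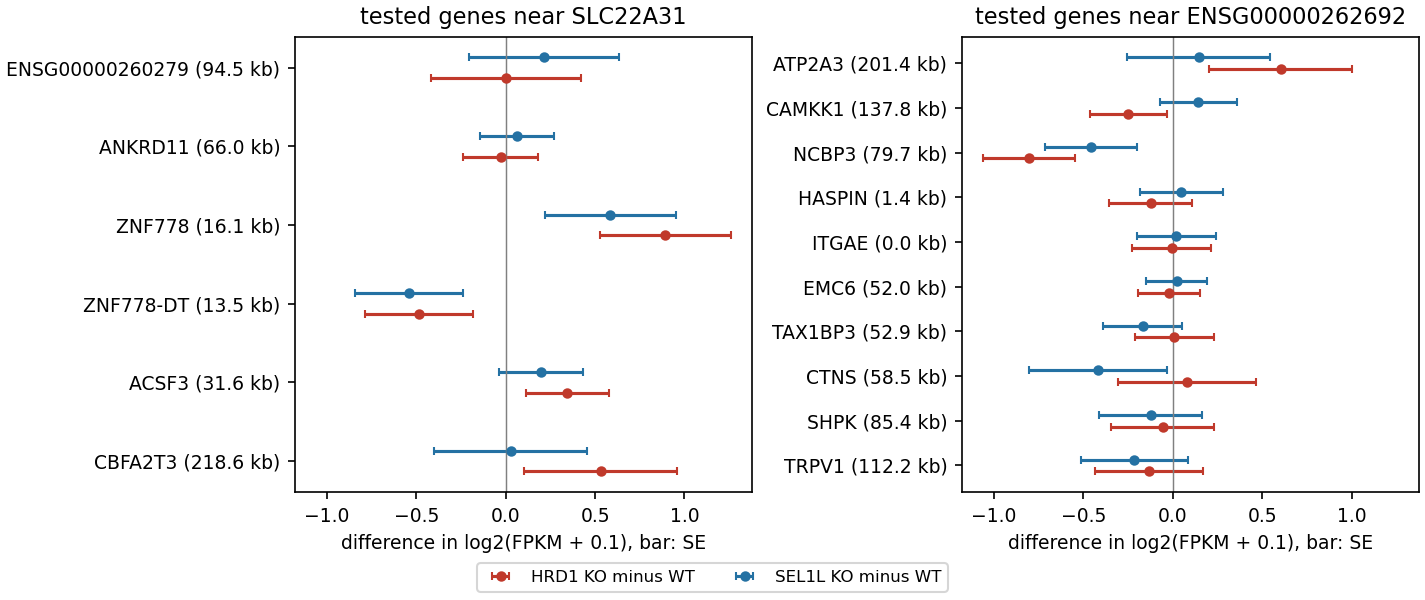
Difference from WT in log2(FPKM + 0.1) with its SE for the tested genes within 250 kb of each member, in genome order with the gap in kb, in HRD1 KO and SEL1L KO. The values run from -0.80 to 0.89, and those of ITGAE lie at -0.01 and 0.02.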

How the data were processed

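PolyA RNA of 9 HEK293T libraries was sequenced as paired ends. Per the paper's methods, the authors mapped reads with STAR 2.7.8a to GRCh38 and estimated abundance with RSEM 1.3.3, and the deposited values are FPKM to 2 decimals, with no counts. The authors' test on count estimates was not repeated. FPKM depends on transcript length and library total, and RSEM divides reads that match several places.

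Groups came from the labels. Tests used limma 3.58.1 (R 4.3.3) with a variance trend on log2(FPKM + 0.1), all 3 groups in 1 model, for 15796 genes that reached an FPKM of 1 in 3 or more libraries, with Benjamini-Hochberg adjustment and a threshold of 0.05. The replicate number was an alternative block. Deviations from group means had correlations of 0.216 to 0.485 in the 9 same-numbered pairs and of -0.396 to 0.027 in the remaining 18, by which same-numbered libraries count as paired. The model without the block leaves that pairing in its error, so not passing in it does not show a lack of change. Replicates correlated at 0.871 to 0.942.

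The FPKM of 1 fragment was taken from genes with 1 annotated transcript (GENCODE v44) of nearly the same length, 58 to 96 per library. The method and the model were run on simulated data. The worth of 1 fragment was recovered within 1.59%. For differences between groups the model called 32% to 51% of changes of 1 on the log2 scale and 77% to 80% of changes of 2. That simulation held no replicate effect, unlike these libraries, so it does not measure how the model without a block performs here. Named genes were the members, HSPA5, the edited genes, neighbours within 250 kb that overlap, lie nearest or were called, the called and the 2 most and 2 least changed genes of each list, and the 5 most alike. Members and lists were chosen with earlier results of these data known. Sequences came from RefSeq (GRCh38.p14) and hg38 through samtools 1.23.1, and copies from BLAST+ 2.17.0. The transcript sequence of ENSG00000262692 is not reported here. Tables were read with pandas 2.3.3 and NumPy 2.4.6 in Python 3.11.15, and plots drawn with matplotlib 3.10.9.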

Additional observations from a re-analysis of the deposited data

How the results depend on the processing

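The difference of SLC22A31 between the knockouts kept its direction and did not pass in all 17 alternatives (0.10 to 0.32 on the log2 scale), and its differences from WT stayed at 2.20 to 2.61 (HRD1 KO) and 2.0 to 2.40 (SEL1L KO), these extremes being from fits with a library left out. That of ENSG00000262692 ran from -0.32 to 0.53 when a library was left out and turned negative without HRD1 KO replicate 1, the library with 4 of its 12 fragments. Its fitted difference from WT depends on the pseudocount and is not given.

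The numbers of genes called depended more on the settings. Between the knockouts the count was 0, 2 with the replicate block, and 0 to 13 with a library left out (1 without WT replicate 2 or 3, 2 without HRD1 KO replicate 2, 13 without HRD1 KO replicate 3 and 6 without SEL1L KO replicate 3). For HRD1 KO minus WT it was 9, 25 with the block, 2 with only the 2 groups compared, and 2 to 18 with a library left out (3 without any 1 of the WT libraries, 18 without HRD1 KO replicate 3, 4 without SEL1L KO replicate 1 or 3 and 2 without SEL1L KO replicate 2). For SEL1L KO minus WT it was 5, 12 with the block, 9 with no filter on low values, and 0 to 9 with a library left out (3 and 1 without WT replicate 1 and 2, and 2, 0 and 9 without SEL1L KO replicate 1, 2 and 3). The replicate number passed for 4293 genes, for 2135 with no filter on low values, and for 2134 to 3516 with a library left out (2680 and 2134 without WT replicate 1 and 3, 2622 and 2366 without HRD1 KO replicate 2 and 3, and 2543 without SEL1L KO replicate 2). The cause was not tested. The block ended no call of a gene named here. Depth limits ENSG00000262692, since 3 fragments would be 6.27 to 6.82 FPKM in a WT library, above most of its knockout values.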
